A study of Mus musculus with 12 samples.

Results

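Thymocytes at the DN4 stage were compared with those at the DN3 stage, the step after beta-selection, across all genes measured. The comparison used the 4 DN3 arrays and the 4 DN4 arrays, 8 of the 12 arrays of the study, chosen by their titles and paired by sort number. Double negative (DN) thymocytes carry neither CD4 nor CD8. DN3 cells were sorted as CD44-CD25+ and DN4 cells as CD44-CD25-. The other 4 arrays held CD44+CD25+ DN2 cells and entered the fit to estimate the spread and the sort effects.

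All cells came from thymuses of female C57BL/6 mice aged 5 to 6 weeks, with no transgene or treatment in either group. The thymuses of 4 mice were pooled for every sort (16 mice over the 4 sorts), and a sort yielded 1 array for each stage, so differences between single mice were not measured. CD4+ and CD8+ cells were first depleted on magnetic columns. The PE stain used to exclude lineage cells covered NK1.1, CD3, CD4, CD8 and the receptor of gamma-delta T cells, and the protocol lists none for B cells, myeloid cells or dendritic cells. Transcripts were measured on Affymetrix Mouse Genome 430 2.0 arrays after cDNA was amplified in repeated rounds of synthesis.

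At the DN3 stage, thymocytes rearrange the gene for the T cell receptor beta chain. A successful beta chain pairs with the pre-T alpha chain (Ptcra) and the CD3 chains to form the pre-T cell receptor, whose signal, together with Notch, carries the cell through beta-selection. Cells that pass lose CD25, divide rapidly and go on to express CD4 and CD8.

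Unnormalized signals were lower on the DN4 arrays. Means after trimming the extremes were 173.0 to 234.1 on the DN3 arrays and 130.9 to 163.4 on the DN4 arrays. The log2 median signal was 4.49 ± 0.17 in DN3 and 4.08 ± 0.11 in DN4 (SD, n = 4), and every DN4 array lay below every DN3 array (exact two-sided permutation p = 0.0286, the smallest possible, adjusted p = 0.0572 over 4 measures). That test does not use the pairing by sort, for which the smallest sign-flip p of 4 pairs is 0.125. Log2 ratios of 3' to 5' signal, a sign of RNA quality, were 1.04 ± 0.17 and 1.16 ± 0.21 for Gapdh (exact permutation p = 0.429, n = 4). Signals were therefore quantile-normalized, and values below are normalized signals or differences in log2(signal + 5.567). That offset understates the change of dim genes, and in bulk samples fewer cells of a type and less RNA per cell cannot be told apart.

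Of 11166 genes above the filter on dim signals, 3382 differed between DN3 and DN4 (30.3%; limma with the sort as a block, Benjamini-Hochberg adjusted p under 0.05). Of these, 1724 were higher in DN4 (15.4% of genes tested) and 1658 were lower (14.8%). The falls were larger than the rises. At least 2-fold differences were called for 421 lower genes (3.77%) and 94 higher genes (0.842%), and at least 4-fold differences for 64 and 5. The 2-fold counts moved with the settings, to 1361 lower and 22 higher without normalization, 274 and 49 with the offset at the table-wide median, and 238 and 39 with the filter at the 75th percentile. The median called fall was -0.67 and the median called rise 0.49 on the log2 scale, against a median of 0.05 over all genes tested. In 109 of the called falls all 4 DN4 arrays lay below the filter level of signal 20.57, and in 33 of the called rises all 4 DN3 arrays did. The differences measured in separate sorts correlated with each other at 0.564 to 0.609 across the 11166 genes, which are not independent replicates. Leaving out DN3 replicate 2 brought the calls to 2192, with 1031 higher, and leaving out DN4 replicate 1 brought the higher calls to 1118. Without the sort as a block 1813 genes were called, 804 higher and 1009 lower.

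The balance of directions depended on the scaling. Without normalization 66 genes were called higher and 3877 lower, and the median over all genes moved to -0.41. With each array centred on its median, 688 were called higher and 2327 lower, with a median of -0.09. A modest rise in the normalized data is therefore a rise relative to the other transcripts of the sample, and the unnormalized median of a list is given beside the normalized one.

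**Figure D1:**
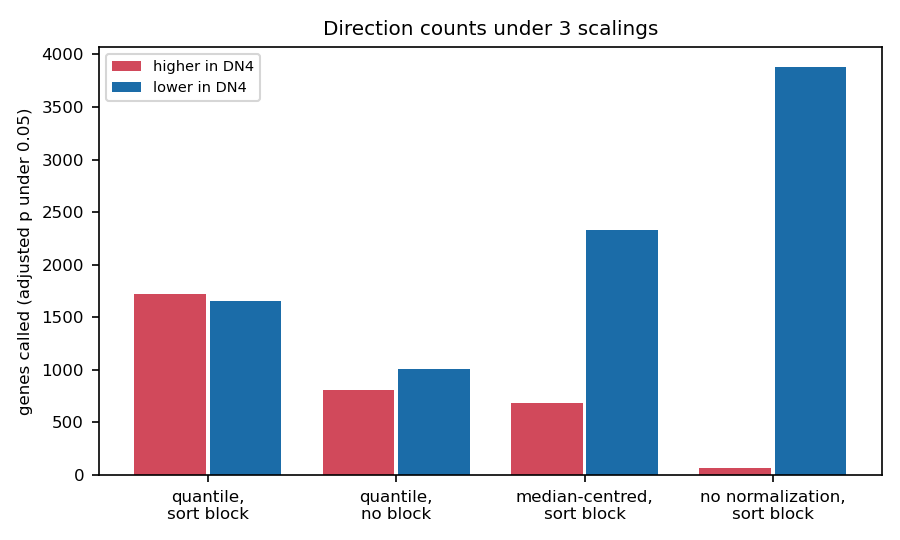
Number of genes called higher (red) or lower (blue) in DN4 than in DN3 under 3 scalings and without the sort block; the vertical axis counts genes from 0. Called rises number 1724 after quantile normalization with the block, 688 after centring and 66 without normalization.

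The stage markers followed the sort gates. Il2ra encodes CD25, the surface protein that separates the gates. Its signals on the DN3 arrays were 1155, 1441, 1523 and 1535 and on the DN4 arrays 68.5, 104, 137 and 170 in sorts 1 to 4. It was 11.8-fold lower in DN4 (log2 difference -3.56, SE 0.16, adjusted p = 9.23e-06). Cd44, absent from both gates by protein, had signals of 34.2 to 64.2 in DN3 and 25.5 to 69.6 in DN4 (difference -0.14, adjusted p = 0.542), against a log2 mean of 9.44 in DN2. Dtx1, a regulator and target of Notch, fell from 849 to 1130 in DN3 to 168 to 325 in DN4 (difference -2.06, SE 0.23). Erg, an ETS factor of progenitors, had DN3 signals of 217, 172, 164 and 128 and DN4 signals of 0.847, 1.32, 4.12 and 1.95. All 4 DN4 values of Erg were below the filter level, so its fall is at least 6.62-fold (adjusted p = 9.23e-06).

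The CD8 chains and Cd2, transcripts of the coming CD4+CD8+ stage, were higher in DN4; the wider list of that stage, described further on, went both ways. Cd8b1, the beta chain of the CD8 co-receptor, gave 31.0, 11.6, 14.5 and 15.8 in DN3 and 241, 257, 424 and 330 in DN4. That is a 13.6-fold rise (difference 3.77, SE 0.31, adjusted p = 1.72e-04), the steepest among the genes tested,; the sort had excluded cells with CD8 protein. Cd2, an adhesion and co-stimulatory receptor, had DN3 signals of 25.2, 19.2, 33.5 and 50.6 and DN4 signals of 210, 112, 244 and 233, a 5.48-fold rise with no overlap. Cd8a, the alpha chain, rose from 23.1 to 45.3 to 56.0 to 88.1 (difference 0.97, adjusted p = 0.0273). The differences of its 4 bright probe sets ran from 0.97, the one used, to 2.32. Its call was lost without DN3 replicate 1 or 3 or DN4 replicate 1 or 3, with adjusted p up to 0.0869 when 1 array was left out. The 5 markers named for the stages were chosen with earlier results of these data known.

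**Figure D2:**
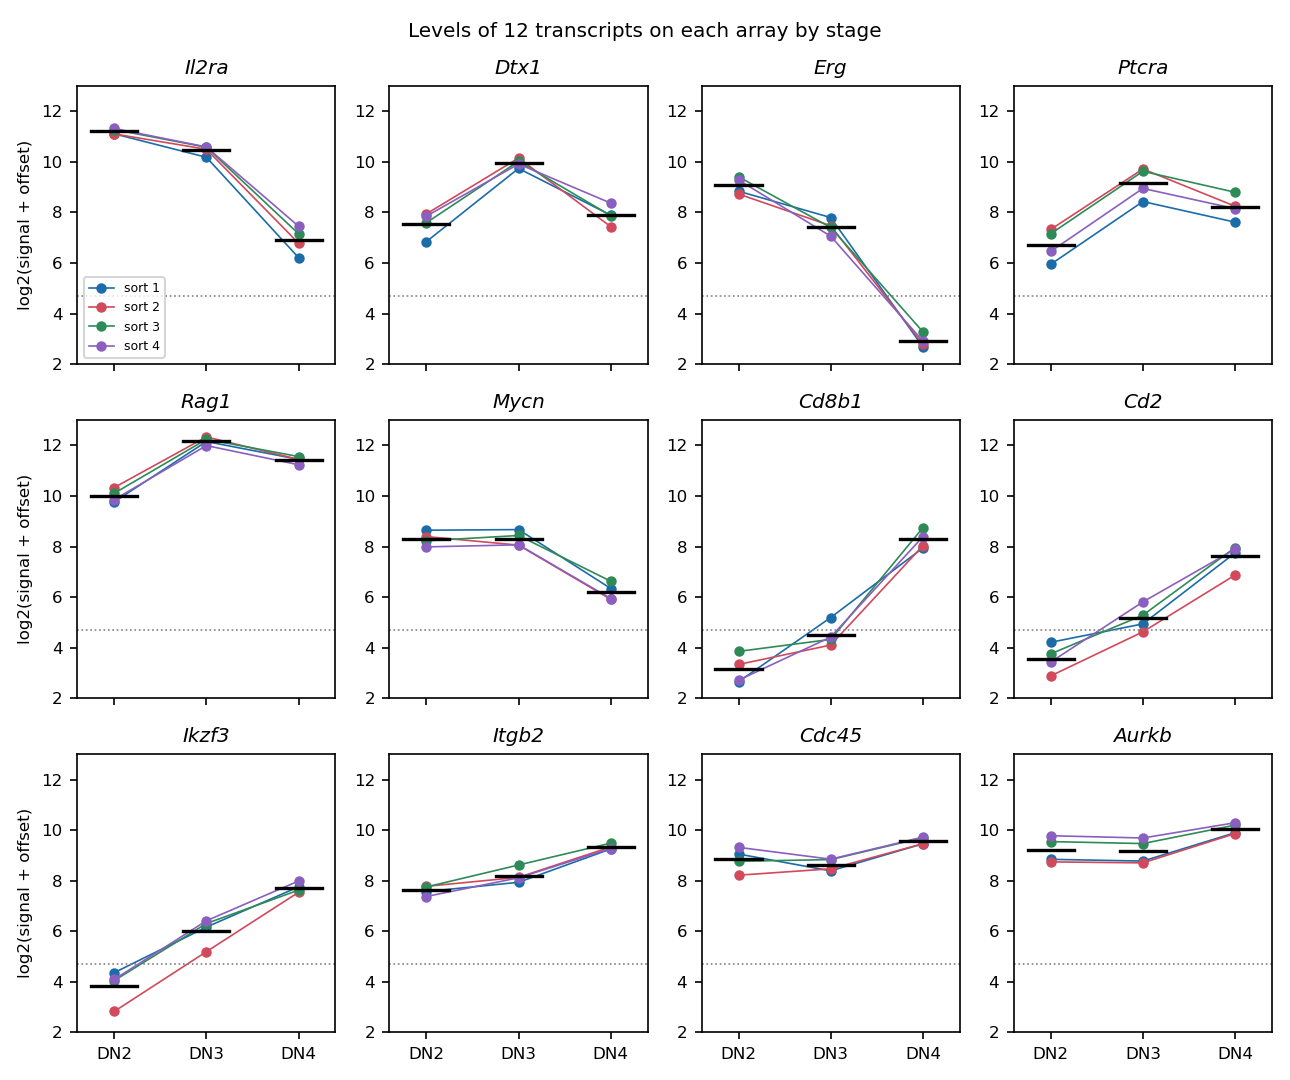
Log2(signal + offset) of 12 transcripts at DN2, DN3 and DN4; points are arrays joined by sort, black bars are stage means and the dotted line is the filter level. Il2ra, Dtx1, Erg and Mycn fall from DN3 to DN4 in all 4 sorts, and Cd8b1, Cd2, Ikzf3 and Itgb2 rise in all 4.

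The genes that fell most were of mixed function. Khdc1a, a member of a family of similar genes that the probe set may not separate, fell from 445, 956, 2244 and 891 to 2.22, 24.1, 136 and 43.9 in sorts 1 to 4 (difference -4.76, SE 0.34). Its level varied widely between sorts at both stages, yet the lowest DN3 value stayed above the highest DN4 value. Ctla2a, which encodes a cathepsin inhibitor-like protein, fell 19.1-fold and Pld4, a lysosomal nuclease, 18.8-fold. Scn4b, a sodium channel beta subunit, went from 574, 879, 700 and 465 to 26.8, 64.5, 26.0 and 39.1. Its DN2 log2 mean of 5.34 lay close to the DN4 mean of 5.40, while the DN3 mean was 9.33.

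Some of these genes were already falling from DN2 and others were high in DN3 alone. Scin, an actin-severing protein, had log2 means of 11.68, 9.47 and 5.77 at DN2, DN3 and DN4, and Serpinb1a, a protease inhibitor, 10.26, 6.95 and 3.58. Bst1, a surface ADP-ribosyl cyclase, had 7.03, 9.01 and 5.64. The zinc finger gene Tshz2 fell by at least 8.14-fold and the Notch pathway gene Dtx4 by at least 6.37-fold, with all DN4 values below the filter level. These values are of each gene's brightest probe set: the other bright probe set of Dtx4 differed by -1.31 and that of Serpinb1a by -0.87. Of 61 named genes with more than 1 bright probe set, 22 had one whose difference was over 1.5-fold away from the value printed. Dmbt1 fell at least 3.48-fold, with all DN4 values below the filter level. Lyz1 fell 8.51-fold, Myl10 8.19-fold and Sytl4 7.72-fold. Each of these genes fell in 4 of 4 sorts. The other bright probe set of Lyz1 differed by -1.095 on the log2 scale.

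After Cd8b1, the largest rises were in genes dim or near the filter level in DN3. Pdlim4, a protein of the actin cytoskeleton, had DN3 signals of 14.2, 2.27, 3.25 and 15.7 and DN4 signals of 95.2, 101, 71.9 and 55.3, at least a 3.23-fold rise. Gsn, the actin-severing protein gelsolin, rose from 22.2 to 47.8 to 114 to 363, a 5.06-fold rise by its brightest probe set. The differences of its 5 bright probe sets ran from 0.86 to 2.34, the one used being the highest. Tent5c, a poly(A) polymerase, rose at least 2.11-fold, the cannabinoid receptor gene Cnr2 at least 1.93-fold and the potassium channel subunit Kcnmb4 at least 2.01-fold. Adgre5, which encodes CD97, rose 3.33-fold, Arsi 3.21-fold and Tmcc3 2.97-fold.

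Trav9d-3 and H2-Q2 belong to families of near-identical genes. The T cell receptor alpha variable segment Trav9d-3 rose from 52.2, 54.4, 59.6 and 83.3 to 163, 172, 215 and 266 (difference 1.62, SE 0.14). H2-Q2, a non-classical MHC class I gene, rose 3.05-fold. Which family members gave these signals is uncertain.

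**Figure D3:**
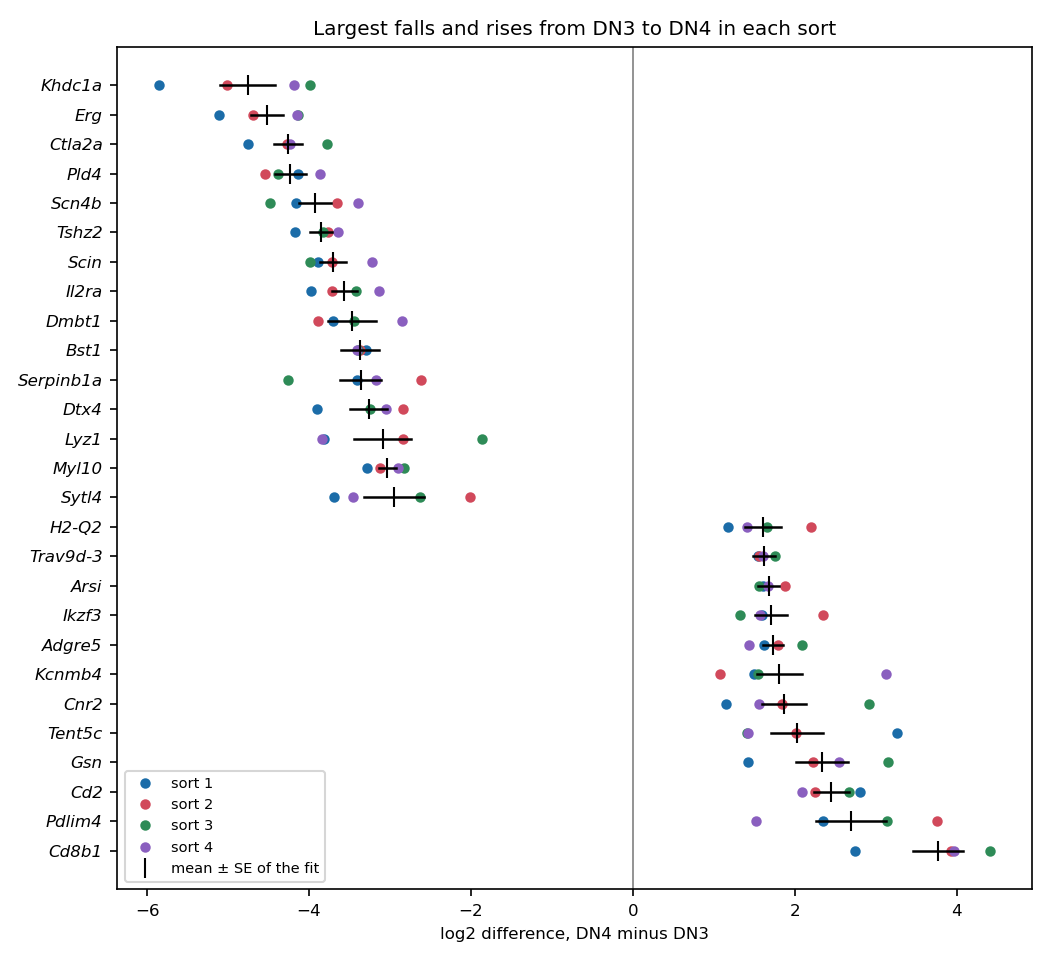
Log2 differences, DN4 minus DN3, of 15 large falls and 12 large rises; coloured points are the 4 sorts, black ticks and lines are the mean and standard error of the fit. All 4 sorts lie on the same side of 0 for each gene, the falls reaching -4.76 and the rises 3.77.

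Components of the pre-T cell receptor itself were lower in DN4. Of 5 members tested in the list of pre-T alpha and CD3 chains, 4 fell and 0 rose, with a median difference of -0.71 (-1.13 without normalization). Ptcra had DN3 signals of 339, 836, 785 and 489 and DN4 signals of 190, 298, 439 and 278. The groups overlapped, both stages being lowest in sort 1, but the fall held in every sort (difference -0.98, SE 0.14, adjusted p = 0.00159; 0.0870 without the sort as a block). Cd3g fell from 5740 to 6256 to 3060 to 3509 (difference -0.88, adjusted p = 2.34e-04), and Cd3e by 0.71. Cd3d fell by 0.52 (adjusted p = 0.0400), a call lost in 9 of 12 fits without 1 array, with adjusted p up to 0.119. Cd247, the zeta chain, differed by -0.07 and did not pass.

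Signalling molecules downstream of the receptor fell more often than genes at large. Of 27 tested, 9 fell (33.3%, against 14.8% of all genes tested) and 3 rose (11.1%, against 15.4%). Their median was -0.16 (-0.57 without normalization). Zap70, the kinase recruited to phosphorylated CD3 chains, rose from 270, 286, 321 and 304 to 405, 421, 484 and 523 (difference 0.62, adjusted p = 0.00169), with no overlap; without normalization the difference was 0.11 and did not pass. Syk, the related kinase, differed by -0.53 (adjusted p = 0.00595), but its bright probe sets differed in sign and the mean of its probe sets did not pass (-0.21, adjusted p = 0.225).

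Negative regulators were found among both the rises and the falls. The ubiquitin ligase gene Cblb fell from 402 to 642 to 174 to 279, and Pag1, a membrane adaptor that recruits the kinase Csk, fell 1.96-fold. Sla, an adaptor that lowers receptor levels, rose from 1300 to 2097 to 3412 to 3651, and Cd6, a surface receptor bound to the T cell receptor complex, rose 2.45-fold. Plcg1, which encodes the phospholipase that starts calcium signalling, fell 1.83-fold. Cd5, a marker of receptor signal strength, was 59.3, 59.9, 90.5 and 120 in DN3 and 75.9, 89.9, 185 and 193 in DN4. It was higher in 4 of 4 sorts but did not pass (difference 0.63, adjusted p = 0.0835), and passed without DN4 replicate 1 (0.85, adjusted p = 0.0343) or without DN2 replicate 1 (0.63, adjusted p = 0.0151).

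Notch1, Notch3 and several Notch targets were lower in DN4. Notch receptors are cleaved on binding ligand, and the released part acts with RBPJ at target genes. Of 21 genes tested, 10 fell and 1, Trib2, rose, with a median of -0.52 (-0.96 without normalization); without the sort as a block 5 fell. Of the receptors, Notch3 fell from 704 to 1034 to 242 to 355 (difference -1.38, SE 0.11, adjusted p = 1.64e-04), and Notch1 from 3545 to 4643 to 2411 to 2852 (difference -0.57, adjusted p = 0.00858). Both had no overlap between stages. Notch2 did not pass (difference -0.30, adjusted p = 0.156).

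Among the targets, Il2ra, Dtx1 and Ptcra, described above, were in this list too, Il2ra and Dtx1 with its 2 largest falls. Hes1, a repressor induced by Notch, went from 2638, 3302, 5058 and 4497 to 1710, 1933, 2495 and 2943. It fell in every sort while the groups overlapped across sorts (difference -0.76, adjusted p = 0.00518; 0.129 without the sort as a block). Nrarp, a feedback inhibitor, differed by -0.40 and did not pass (adjusted p = 0.0595); leaving out DN2 replicate 2 gave an adjusted p of 0.0254 and leaving out DN2 replicate 4 gave 0.0438. Rbpj differed by -0.48 (adjusted p = 0.00594), but its bright probe sets differed in sign and their mean did not pass (-0.18, adjusted p = 0.199). Gata3, also a Notch target, was 383 to 605 in DN3 and 428 to 630 in DN4 (difference 0.08, adjusted p = 0.663).

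Promoter windows from RefSeq (GRCm38.p6, 250 bases before to 50 after a gene's start) were searched on both strands for TGGGAA, the core bound by RBPJ (TTCCCA on the other strand). The letters occurred in 4 of 15 Notch list genes with a window, and in 2 of the 9 called ones, against 26.3% of tested genes and 25.6% of all 32851 windows. Ptcra held 2 matches, 84 and 32 bases before its start. The 250 bases before its start are shown because Ptcra is both a Notch target and the pre-T cell receptor chain that fell (chr17:46763713-46763962, minus strand; capitals mark the matches):
Ptcra: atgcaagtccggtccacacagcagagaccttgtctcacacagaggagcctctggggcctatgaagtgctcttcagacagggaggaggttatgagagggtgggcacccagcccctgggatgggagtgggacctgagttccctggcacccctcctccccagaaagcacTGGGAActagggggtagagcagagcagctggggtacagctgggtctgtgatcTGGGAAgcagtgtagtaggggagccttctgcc

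Several transcription factors that act before commitment were lower in DN4. Of 17 progenitor regulators tested, 6 fell (35.3%, against 14.8% of all genes tested) and 1, Cd34, rose (5.88%, against 15.4%). Their median was -0.61 (-0.92 without normalization). The rise was lost without any one of DN3 replicates 1, 3 and 4 and DN4 replicates 1, 3 and 4. Besides Erg, Mycn fell from 261 to 402 to 54.7 to 93.3 (difference -2.10, SE 0.14, adjusted p = 6.16e-05). Nfe2, a haematopoietic factor, fell at least 1.69-fold to below the filter level, and Kit, the stem cell factor receptor, 2.11-fold. Bcl11a fell by 1.33 (adjusted p = 0.00922; 0.0668 without the sort as a block), with overlap between stages. Within the ETS family 5 of 17 fell (29.4%, against 14.8% of all genes tested) and 1, Gabpa, rose (5.88%, against 15.4%). The family's median of 0.03 was -0.41 without normalization, and every fit without 1 array gave 0 or 2 rises. Spib, a lymphoid ETS factor, fell from 264 to 517 to 74.6 to 156, and Etv6 1.72-fold.

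T-lineage factors fell more often than they rose with the sort as a block, but without it 1 fell and 2 rose. Of 23 tested, 7 fell (30.4%, against 14.8% of all genes tested) and 2 rose (8.7%, against 15.4%), with a median of -0.11 (-0.54 without normalization); the falls numbered 3 without DN3 replicate 2, 4 without DN3 replicate 4 and 3 without DN4 replicate 4. Ikzf3, the Ikaros family factor Aiolos, had DN3 signals of 66.2, 31.0, 73.6 and 79.8 and DN4 signals of 211, 181, 192 and 249 (difference 1.71, SE 0.20, adjusted p = 7.37e-04). Tox2 rose by 1.15 (adjusted p = 0.00748). Runx1 fell from 1523 to 1878 to 609 to 970 by its brightest probe set (difference -1.10), but its bright probe sets differed in sign. Lef1 (difference 0.25, adjusted p = 0.205) did not pass.

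Of 6 E protein and Id genes tested, 2 fell (33.3%, against 14.8% of all genes tested) and 1 rose (16.7%, against 15.4%). Their median was -0.02 (-0.38 without normalization). The Id inhibitors Id2 and Id3 moved in opposite directions, and the E proteins Tcf3 and Tcf12 did not pass. Tcf3 gave 663 to 1066 in DN3 and 704 to 928 in DN4 (difference 0.01, adjusted p = 0.935), and Tcf12 3229 to 3730 and 3166 to 3538 (difference -0.05, adjusted p = 0.621, with probe sets that differed in sign). Id3, which blocks E proteins and is induced by receptor signals, rose from 179, 172, 197 and 161 to 344, 355, 507 and 379. The difference was 1.12 (SE 0.27, adjusted p = 0.0163), a call lost without DN3 replicate 2, DN4 replicate 3 or DN4 replicate 4, with adjusted p up to 0.0598. Id2 fell from 605, 445, 1083 and 791 to 269, 283, 605 and 408 (difference -0.89, adjusted p = 0.0133; 0.202 without the sort as a block). Tcf4, the third E protein, fell by 0.54 (adjusted p = 0.00937).

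In the Myc and Max network, Mycn fell as above while Myc did not pass. Myc signals were 289, 378, 448 and 486 in DN3 and 179, 178, 247 and 351 in DN4, lower in 4 of 4 sorts (difference -0.76, SE 0.46, adjusted p = 0.247). The fit on the 8 arrays alone gave -0.77 with adjusted p = 0.00929. Mxd3, a Max partner expressed in dividing cells, rose from 93.9 to 125 to 158 to 315 (difference 1.08, adjusted p = 0.00278). Of the 11 members tested, 4 fell (36.4%, against 14.8% of all genes tested) and 1, Mxd3, rose (9.09%, against 15.4%). The median of -0.43 was -0.91 without normalization.

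Early response genes, induced soon after receptor signals, fell or did not pass. Of 26 tested, 8 fell (30.8%, against 14.8% of all genes tested) and 0 rose (against 15.4%). Their median was -0.22 (-0.71 without normalization). Without the sort as a block 2 fell. Jun, a subunit of AP-1, fell from 396, 415, 823 and 444 to 98.5, 119, 241 and 168 (difference -1.71, SE 0.14, adjusted p = 1.79e-04). Egr1, a transcription factor induced through ERK, fell from 650, 1116, 1229 and 973 to 394, 623, 480 and 522 (difference -0.95, adjusted p = 0.00508), with no overlap. Egr3 was dim, at 21.9 to 48.0 in DN3 and 4.70 to 23.2 in DN4 (difference -1.08, adjusted p = 0.00655; 0.0503 without the sort as a block). Nr4a1 differed by 0.34 and did not pass.

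Several cytokine receptors fell. Of 21 cytokine receptor genes tested, 8 fell (38.1%, against 14.8% of all genes tested) and 0 rose (against 15.4%). Their median was -0.49 (-0.84 without normalization). Without any one of DN2 replicates 2 and 4, DN3 replicates 3 and 4 and DN4 replicates 2 and 3, 1 rose. Il7r, the receptor chain that keeps early thymocytes alive, had DN3 signals of 688, 719, 846 and 790 and DN4 signals of 316, 368, 356 and 420 (difference -1.05, SE 0.10, adjusted p = 2.45e-04). Il4ra fell from 218 to 257 to 43.7 to 98.7, and Il21r 2.15-fold.

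Among 8 feedback inhibitors of cytokine signals (Socs1 to Socs7 and Cish), Socs2 and Socs3 fell and the other members did not pass. Socs3, an inhibitor of cytokine receptors, fell from 870, 1647, 1606 and 576 to 146, 457, 538 and 174 (difference -1.91, SE 0.18). The sorts kept their order, sorts 2 and 3 being high at both stages. Socs2 fell at least 3.16-fold to below the filter level, and Stat4, a signal transducer of interleukin-12, 2.19-fold. Of 20 genes in the JAK, STAT and SOCS list, 5 fell and 1, Pim3, rose; without DN3 replicate 2 the falls numbered 3, and every fit without 1 array other than DN4 replicate 4 gave 0 or 2 rises. Its median of -0.06 was -0.57 without normalization.

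Survival genes were called about as often as genes at large. Of 17 tested, 3 fell and 3 rose (17.6% each way, near the 14.8% and 15.4% of all genes tested), with a median of 0.13 that was -0.42 without normalization; without DN3 replicate 2 the rises numbered 1. Bcl2, a survival factor maintained by interleukin-7, fell from 582 to 1138 to 216 to 296 (difference -1.72, SE 0.11, adjusted p = 6.16e-05). The pro-apoptotic gene Bid rose 1.73-fold, with no overlap; without normalization its difference was 0.27 (adjusted p = 0.273). Bmf, also pro-apoptotic, fell 2.15-fold by its brightest probe set, but its bright probe sets differed in sign.

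Genes of DNA replication and mitosis rose together, each by a modest amount. Of 45 DNA replication genes tested, 36 rose and 0 fell, with a median of 0.50. Of 42 mitosis genes, 34 rose and 0 fell, with a median of 0.58. Without normalization the medians were 0.11 and 0.14, still above the all-gene median of -0.41, but 0 replication genes and 1 mitosis gene were then called higher and 1 replication gene lower. With arrays centred on their median, 29 and 21 rose. Without DN4 replicate 1, 28 and 26 did, and without the sort as a block 24 and 15.

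Cdc45, part of the helicase that unwinds DNA at forks, gave DN3 signals of 330, 349, 451 and 456 and DN4 signals of 699, 700, 825 and 842 (difference 0.95, SE 0.16, adjusted p = 0.00354). Rrm2, a subunit of ribonucleotide reductase, rose from 2459, 1851, 2590 and 2971 to 3849, 3473, 4247 and 4622. The stages did not overlap for either gene. Gins2 and Gins3, subunits of the same helicase complex, rose by 0.76 and 0.80, the clamp loader subunit Rfc4 by 0.67 and the licensing factor Cdc6 by 0.70.

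Aurkb, the kinase of the chromosomal passenger complex, rose from 433, 412, 703 and 820 to 948, 926, 1170 and 1249 (difference 0.90, SE 0.12, adjusted p = 0.00119). Sorts 3 and 4 were higher than sorts 1 and 2 at both stages. Plk1, a mitotic kinase, rose in every sort with overlap across sorts (difference 0.71, adjusted p = 0.00179; 0.143 without the sort as a block). Kif4, a chromosome-bound motor, and Racgap1, which acts in cytokinesis, rose 1.74-fold each.

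Cyclins and their regulators changed in both directions. Of 29 tested, 18 rose and 5 fell, with a median of 0.56 (0.12 without normalization). Ccne2, a cyclin of entry into S phase, rose from 341, 199, 368 and 562 to 643, 609, 768 and 1012, Ccnb2 1.84-fold and Cdk1 1.65-fold. Members that act in G1 went both ways. Ccne1, Cdk2, Ccnd3 and Cdk4 were among the rises (0.91, 0.71, 0.53 and 0.26) and Ccnd1 among the falls (-0.42). Ccnd2, a D-type cyclin, fell from 1784 to 2568 to 627 to 1058 (difference -1.45, SE 0.11, adjusted p = 1.41e-04) and Cdk6 1.64-fold. Cdkn1a, which encodes the CDK inhibitor p21, had DN3 signals of 877, 1559, 2012 and 1116 and DN4 signals of 171, 291, 256 and 148 (difference -2.63, SE 0.33, adjusted p = 9.72e-04). The falls numbered 3 without any one of DN3 replicates 2, 3 and 4 and DN4 replicates 1, 2 and 4.

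DNA damage response genes mostly rose, with a median of 0.37 that was -0.08 without normalization. Of 26 tested, 14 rose and 3 fell, Cdkn1a among the falls. Fancd2, of the pathway that repairs DNA cross-links, rose from 70.2 to 91.8 to 138 to 184 (difference 0.93, SE 0.07, adjusted p = 1.31e-04), and Brca1 1.62-fold. Of 15 genes for histone chaperones and chromatin assembly, 7 rose and 0 fell, Asf1b by 0.64; the rises numbered 3 without DN3 replicate 2, and the list's median of 0.24 was -0.05 without normalization.

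The same windows were searched for TTCCCGC, a core bound by E2F factors (GCGGGAA on the other strand). It occurred in 15 of 38 DNA replication genes with a window, and in 12 of the 30 called ones, against 9.8% of tested genes and 4.6% of all windows. The match in Gins3 lay 41 bases and that in Cdc6 138 bases before the start. The 250 bases before the start of both are shown as called replication genes whose match lies upstream (Gins3 at chr8:95633309-95633558 and Cdc6 at chr11:98907901-98908150, both plus strand; capitals mark the match):
Gins3: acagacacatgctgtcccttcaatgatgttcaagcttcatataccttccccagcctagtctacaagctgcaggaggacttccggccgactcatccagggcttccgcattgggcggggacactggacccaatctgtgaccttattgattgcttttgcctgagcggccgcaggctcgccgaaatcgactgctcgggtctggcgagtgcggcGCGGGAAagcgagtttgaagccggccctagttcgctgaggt
Cdc6: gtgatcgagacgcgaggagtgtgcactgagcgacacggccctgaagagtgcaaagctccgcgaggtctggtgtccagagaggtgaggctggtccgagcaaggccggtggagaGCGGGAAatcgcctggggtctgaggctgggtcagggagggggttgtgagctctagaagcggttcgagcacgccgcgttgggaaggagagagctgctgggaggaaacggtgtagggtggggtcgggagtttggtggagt

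Biosynthesis genes that feed DNA synthesis rose with the cell cycle. Of 22 genes of nucleotide, serine and one-carbon synthesis, 16 rose and 0 fell, with a median of 0.42 (0.01 without normalization); without the sort as a block 6 rose. Shmt1, which passes one-carbon units from serine to folate, rose from 796 to 993 to 1140 to 1431. Ctps, the enzyme that makes CTP, rose 1.44-fold and the mitochondrial folate enzyme gene Mthfd1l 1.46-fold.

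Ribosome biogenesis genes shifted upward by small amounts, and glycolysis genes went both ways. Of 30 ribosome biogenesis genes, 29 had a difference above 0. Of the 30, 11 rose (36.7%, against 15.4% of all genes tested) and 0 fell (against 14.8%). Their median of 0.24 was -0.14 without normalization. Without the sort as a block 2 rose, and with arrays centred on their median 1 rose. The rises numbered 3 without DN3 replicate 2, 5 and 6 without DN3 replicates 3 and 4, and 4, 7 and 6 without DN4 replicates 1, 2 and 4. Polr1b, a subunit of RNA polymerase I, rose from 286 to 364 to 471 to 564 (difference 0.69, adjusted p = 0.00378). In glycolysis 4 of 17 rose (23.5%, against 15.4% of all genes tested) and 3 fell (17.6%, against 14.8%). The glycolysis median was 0.21 (-0.28 without normalization). The rises numbered 2 without DN3 replicate 1 or 2 or DN4 replicate 1, 2 or 4. Pfkp, a phosphofructokinase, rose 1.66-fold by its brightest probe set, with another at 0.04 on the log2 scale, while Aldoc, an aldolase, fell 2.93-fold. Fbp1, which runs the opposite reaction to phosphofructokinase, fell from 91.0, 99.1, 154 and 142 to 3.35, 10.3, 27.1 and 28.9.

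**Figure D4:**
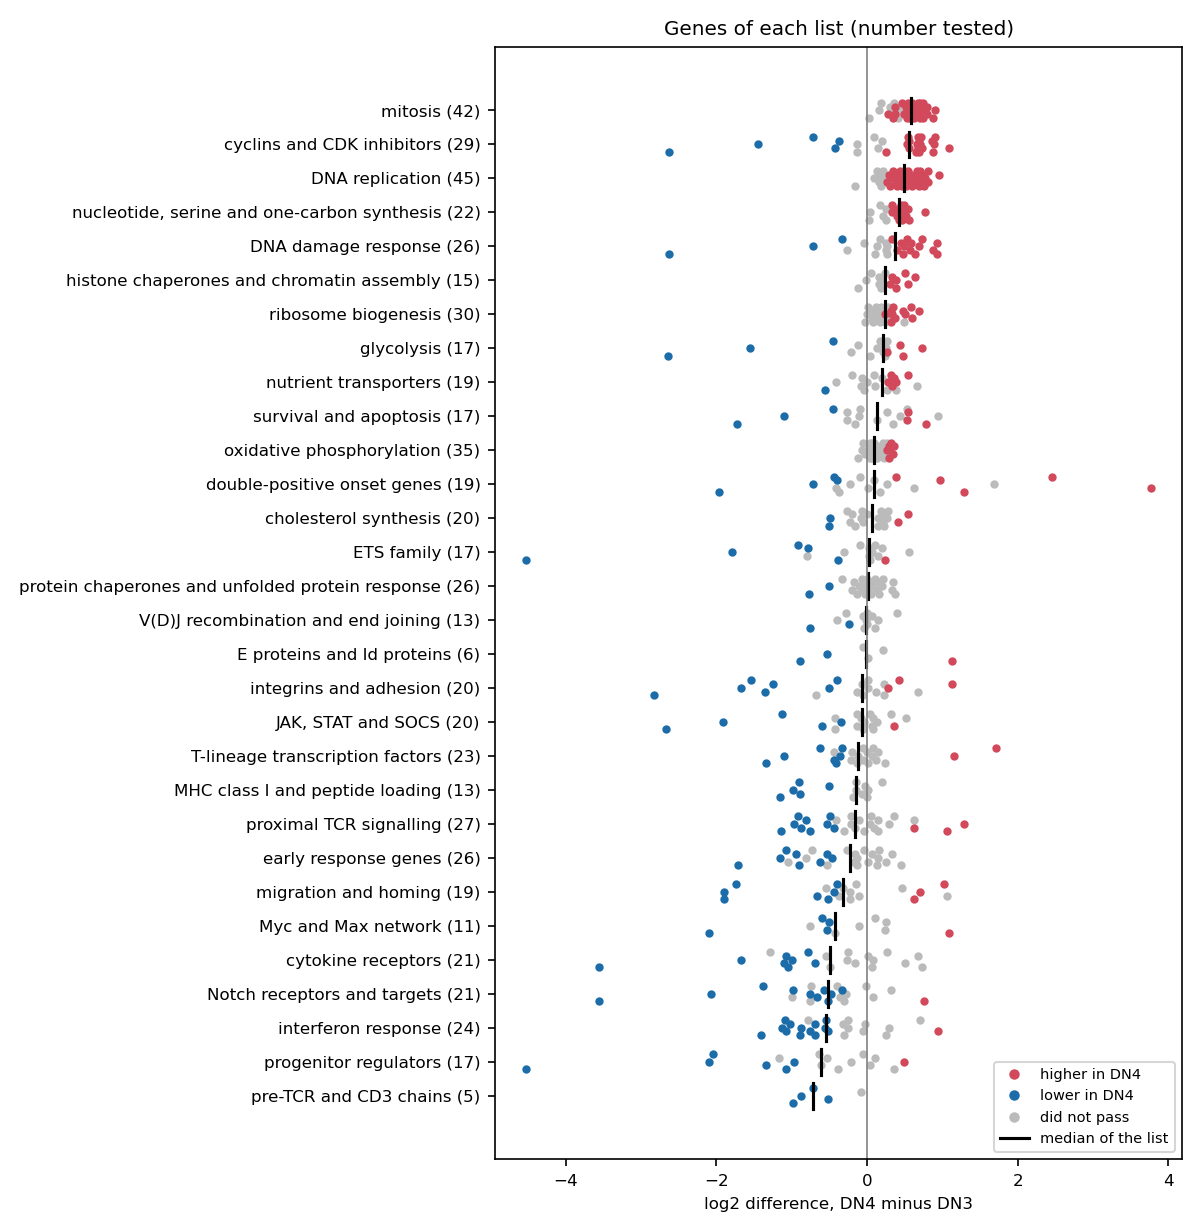
Log2 differences, DN4 minus DN3, of the genes tested in each list; red points passed as higher, blue as lower, grey did not pass, and black bars are list medians. Marker lists are not drawn; of the lists drawn, mitosis genes sit highest (median 0.58) and the pre-T cell receptor and CD3 chains lowest (median -0.71).

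Interferon response genes were lower in DN4. Of 24 tested, 13 fell and 1, Ifit2, rose, with a median of -0.55 (-1.08 without normalization). Trim30a, an interferon-induced ubiquitin ligase, fell from 463, 505, 606 and 573 to 183, 204, 314 and 287 (difference -1.13, SE 0.10, adjusted p = 1.79e-04). Parp14 fell 2.13-fold, and Ifih1, which encodes a sensor of double-stranded RNA, 1.83-fold. Ifit2 went against the rest, rising from 134 to 228 to 276 to 436 (difference 0.94, adjusted p = 0.00106; 0.130 without normalization).

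Some genes of MHC class I presentation were also lower. Of 13 tested, 5 fell (38.5%, against 14.8% of all genes tested), 0 rose (against 15.4%) and 8 did not pass. Their median was -0.15 (-0.59 without normalization). H2-Q2, which rose as described above, was not among them. H2-K1, a classical class I heavy chain, fell from 3849, 4167, 4266 and 3132 to 1736, 1808, 1810 and 1510 (difference -1.16, SE 0.11, adjusted p = 2.94e-04). The differences of its 4 bright probe sets ran from -1.76 to -0.41. B2m, its light chain, fell by 0.50, Tapbp, which loads peptide, by 0.89, and Nlrc5, the class I transactivator, by 0.98. With arrays centred on their median B2m did not pass (-0.40, adjusted p = 0.0607).

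Adhesion molecules fell more often than genes at large and rose about as often. Of 20 tested, 7 fell (against 14.8% of all genes tested) and 3 rose (a share near the 15.4% of all genes tested). Their median was -0.06 (-0.57 without normalization). Without the sort as a block 7 fell and 1 rose. Cdh1, which encodes E-cadherin, had DN3 signals of 268, 381, 257 and 297 and DN4 signals of 24.9, 59.8, 40.3 and 29.8 (difference -2.83, SE 0.17, adjusted p = 4.44e-05). Epcam, an epithelial adhesion molecule, fell 3.19-fold. Itgb2, the beta chain of leukocyte integrins, rose from 240, 275, 388 and 272 to 605, 640, 712 and 613 (difference 1.14, SE 0.11, adjusted p = 2.77e-04).

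Among 19 migration genes, 7 fell (36.8%, against 14.8% of all genes tested) and 3 rose (15.8%, against 15.4%). Their median was -0.32 (-0.79 without normalization). The rises numbered 1 without DN3 replicate 2 or DN4 replicate 2. Rgs1, which dampens chemokine receptor signals, fell from 658, 465, 866 and 559 to 121, 141, 202 and 204, and Rgs18 at least 1.48-fold to below the filter level. Ccr9, the receptor for the thymic chemokine CCL25, was 816 to 1942 in DN3 and 560 to 1487 in DN4 and did not pass (difference -0.38, adjusted p = 0.329), with probe sets that differed in sign.

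Genes of the coming double-positive stage changed in both directions. Of 19 tested, 5 rose (26.3%, against 15.4% of all genes tested) and 4 fell (21.1%, against 14.8%). Their median was 0.09 (-0.36 without normalization). The rises numbered 3 without DN3 replicate 1 or DN4 replicate 3, and the falls 2 without DN3 replicate 2. Cd8b1, Cd2, Cd6 and Cd8a were among the rises. Cd53, a tetraspanin, fell from 892 to 959 to 190 to 316. Of 13 genes of V(D)J recombination and end joining, 2 fell (15.4%, near the 14.8% of all genes tested) and 0 rose. Their median was -0.01 (-0.43 without normalization). Of the falls, 1 was lost without any array other than DN2 replicates 1 and 2 and DN3 replicate 1. Rag1, a recombinase subunit, fell from 4548, 5171, 4836 and 4074 to 2793, 2784, 3013 and 2405 (difference -0.76, SE 0.10, adjusted p = 0.00108). Its partner Rag2 was near the filter level and did not pass (difference -0.40, adjusted p = 0.337).

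Markers of cells that the sort did not exclude were examined beside these results. MHC class II genes rose unevenly. H2-Aa, the class II alpha chain of presenting cells, had DN3 signals of 43.0, 63.4, 99.5 and 92.6 and DN4 signals of 47.3, 305, 364 and 404. DN4 replicate 1 stayed at the DN3 level while the other 3 DN4 arrays were higher (difference 1.54, adjusted p = 0.0358). H2-Eb1 had the same form, with DN4 signals of 33.5, 206, 179 and 203 (difference 1.32, adjusted p = 0.0437), and H2-Ab1 rose by 0.78 (adjusted p = 0.0295). Without DN4 replicate 1 the H2-Aa difference was 2.14 and the H2-Eb1 difference 1.83. The calls of H2-Aa and H2-Eb1 were lost in 9 of 12 fits without 1 array and that of H2-Ab1 in 7 of 12, those without a DN3 array or DN4 replicate 2, 3 or 4 among them in each case.

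Cd74, the invariant chain that pairs with class II, rose from 39.7 to 57.9 to 72.0 to 164 (adjusted p = 0.00958), and Ms4a1, which encodes the B cell protein CD20, from at most 13.7 in DN3 to at most 46.1 in DN4, with overlap between stages (at least 1.17-fold, adjusted p = 0.0144). Ighm, the immunoglobulin mu chain, rose from 2551 to 2814 to 4247 to 4665 (difference 0.71, adjusted p = 0.00560; 0.0604 without normalization). Of 12 tested B cell markers, 4 rose (33.3%, against 15.4% of all genes tested) and 1, Cd79b, fell (8.33%, against 14.8%). Without DN3 replicate 4 or DN4 replicate 4 the falls numbered 2. The list's median of 0.46 was -0.08 without normalization. The summed signal of the tested members was 3092 to 3345 in DN3 and 4754 to 5340 in DN4. Most of that sum was Ighm, which was 1951 to 3239 in DN2; the other members summed to 474 to 596 in DN3 and 478 to 755 in DN4, with overlap. Of the 15 on the array, 1, the defining factor Ebf1, was below the filter level on all 8 arrays, and Cd79a was 0.801 to 12.9 in DN3 and 13.7 to 24.2 in DN4. Of 10 dendritic cell markers tested, 5 rose and 3 fell, with a median of 0.26 that was -0.19 without normalization. Their sum was 2732 to 4025 in DN3 and 2445 to 3964 in DN4, and Itgax, which entered the test through its DN2 level, was below the filter level on all 8 arrays. The rises of this list numbered 1 to 3 without any array other than DN2 replicates 1 and 2 and DN4 replicate 1. The part of such cells in the rises above was not tested.

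**Figure D5:**
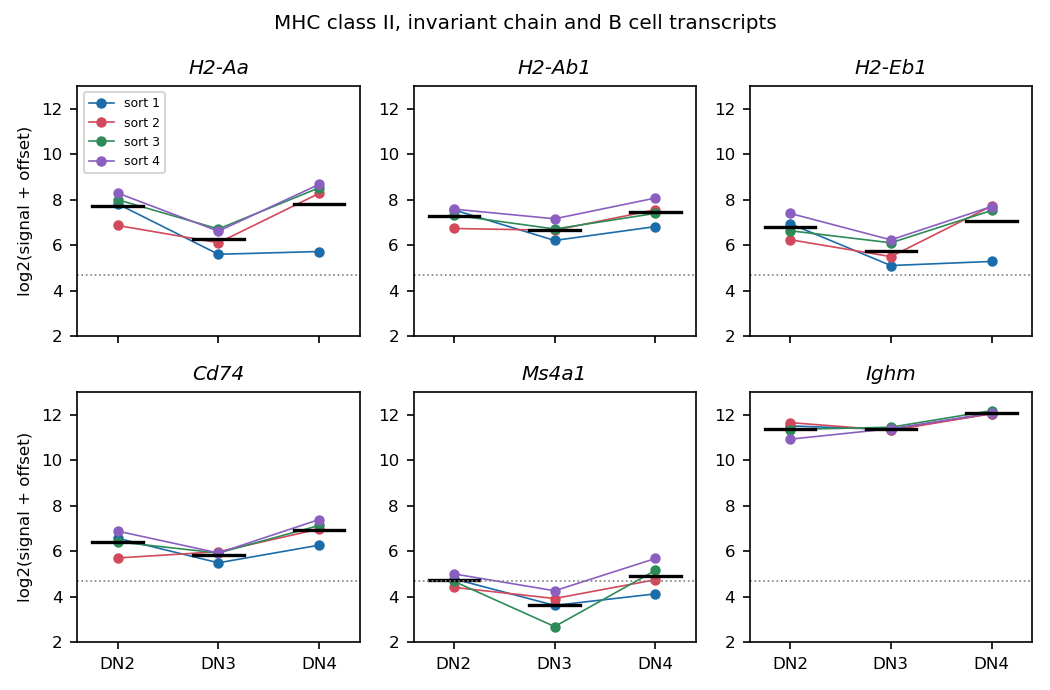
Log2(signal + offset) of class II chains, the invariant chain and B cell transcripts at DN2, DN3 and DN4; points are arrays joined by sort, black bars are stage means and the dotted line is the filter level. In sort 1 the H2-Aa signal goes from 43.0 to 47.3 between DN3 and DN4, while it reaches 305 to 404 in the other sorts.

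Markers of other lineages are set beside the shares of all genes tested, 14.8% lower and 15.4% higher. Of 11 natural killer and innate markers tested, 4 fell and 0 rose, and 6 of the 17 on the array were below the filter level on all 8 arrays; their median was -0.13 (-0.54 without normalization). The sum of the tested members was 7605 to 8537 in DN3 and 7475 to 9452 in DN4, most of it Gzma. Without Gzma the sum was 1127 to 1880 in DN3 and 426 to 785 in DN4, with no overlap. Nkg7, a cytotoxic granule protein, fell from 367, 692, 619 and 521 to 60.0, 69.6, 78.7 and 72.0, and Gzmb, a granzyme, at least 1.93-fold. Gzma, another granzyme, was 6171 to 6798 in DN3 and 7049 to 8667 in DN4 (difference 0.30, adjusted p = 0.270). Of 12 myeloid markers 2 fell and 1, Ctss, rose, with a median of -0.16 (-0.47 without normalization) and a sum of 784 to 871 in DN3 and 733 to 852 in DN4. Cpa3, a mast cell protease also present in early progenitors, fell 3.26-fold with overlap. Of 9 thymic stromal markers tested, 2 fell and 1 rose, with a median of -0.03 (-0.54 without normalization). The rise was lost without any one DN3 or DN4 array. Pdgfrb, in that list, fell 3.44-fold, while Krt8 was 4.09 to 13.4 in DN3 and 20.4 to 42.1 in DN4.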

How the data were processed

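Linear signal intensity values of 12 arrays were used as deposited. Per the submitters' processing notes the authors made them with GCOS. Which algorithm and scaling target it ran with is not stated there, and array medians were unequal. Of 45101 probe sets, 34958 had 1 symbol in the platform annotation, and the brightest of them on average stood for each gene. Signals were quantile-normalized, the table's 25th percentile (5.567) was added and log2 taken. Genes above the table-wide median (log2 4.71) on at least 4 arrays were tested with limma 3.58.1 in R 4.3.3, two-sided, on all 12 arrays with stage means and the sort as a fixed block, with Benjamini-Hochberg adjustment. Array measures used exact permutation. A fold is a bound, written as at least, where all arrays of the lower stage were below the filter level, and is then taken against that level.

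Pairing comes from the labels, which state that arrays of 1 number share a cell source. Deviations from stage means correlated at 0.264 to 0.342 between the DN3 and DN4 arrays of a sort and from -0.240 to 0.107 between arrays of different sorts and stages. No pair of arrays was identical (0 pairs).

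Genes named were the sort and stage markers, the 15 largest rises and falls called with 4 of 4 sorts in 1 direction, leaving out placeholder symbols; the 6 or fewer called genes of smallest adjusted p in each of 40 lists; other list members with their values, and the 3 brightest of each list of other cell types. Not all such genes are printed. The members and lists were chosen with earlier results of these data known. No set test was run. The fit was tested on simulated data. Alternatives were other scalings, offsets, filters, probe set rules and fits, no block, sort pairs and leaving out arrays or sorts. Precision is limited by the number of arrays.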

Additional observations from a re-analysis of the deposited data

Results flagged for a closer look

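In 12 of 272 groups of 4 arrays, 1 array lay far from the other 3 by Dixon's criterion; chance gives about 1 in 20. Values are log2(signal + offset). The class II chains H2-Aa and H2-Eb1 were low on DN4 replicate 1, while H2-Ab1 was not flagged. H2-Aa was 5.72 there against 8.28 to 8.68 on the other DN4 arrays, and H2-Eb1 5.29 against 7.53 to 7.72. The invariant chain gene Cd74 was low on DN3 replicate 1, at 5.50 against 5.93 to 5.99.

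On DN3 replicate 2, Syk stood high at 8.09 and Aldoc at 7.03. On DN3 replicate 3, Jun stood high at 9.69 and Rgs18 at 5.78. On DN3 replicate 4, Dtx4 was high at 7.59 and Kcnmb4 low at 2.85. On DN4 replicate 3, B2m was high at 12.42, Rag2 high at 5.33 and Socs2 low at 2.70.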

How the results depend on the processing

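Without the sort as a block, which sets the pairing aside, 1813 genes were called, 804 higher and 1009 lower. Without normalization 66 were higher and 3877 lower, and with arrays centred on their median 688 were higher. With no filter on dim genes 1039 were higher. With every probe set tested by itself 5130 were called, 2609 of them lower, among 20357 tested. Sorts 1 and 2 alone gave 422 calls, 91 higher and 331 lower, and sorts 3 and 4 alone 498, 120 higher and 378 lower, with fewer arrays in each fit. Leaving out 1 array or 1 sort gave 1886 to 3663 calls, 823 to 1912 higher and 1063 to 1751 lower. For these counts, the other alternatives run stayed within 1.5 times the count given in the report. Of 132 genes named with a full set of alternatives, 120 were called and 114 kept their call in every fit without 1 array. None of them changed direction with a call under the alternatives that give 1 value for each gene (0 genes). The test of every probe set by itself was not part of that count. Bright probe sets differed in sign for 6 named genes, Runx1 among them (-1.36 to 0.69). Without normalization 31 of the 132 lost their call. Transcripts near the filter level of signal 20.57 are limited by dim signal.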

Other observations

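The lists not described above are given beside the shares of all genes tested, 15.4% higher and 14.8% lower. Of 4 gamma-delta T cell markers tested, 2 fell and 0 rose, with 1 to 2 falls in fits without 1 array. Of 12 mature alpha-beta T cell markers, 2 fell and 1 rose, with 0 to 2 rises in such fits. Among 3 mast cell and basophil markers 1 fell and 0 rose, and among 6 erythroid markers 1 fell and 0 rose. The medians of these lists were -0.35, -0.10, -0.93 and 0.14 in that order (-0.90, -0.64, -1.15 and -0.20 without normalization). Of 35 oxidative phosphorylation genes tested, 7 rose and 0 fell, with a median log2 difference of 0.10 (-0.12 without normalization), and fits without 1 array gave 1 to 12 rises. Of 26 protein chaperone and unfolded protein response genes, 2 fell and 0 rose, with a median of 0.01 (-0.23 without normalization). Of 20 cholesterol synthesis genes, 2 rose and 2 fell, with a median of 0.07 (-0.42 without normalization); fits without 1 array gave 1 rise in 8 of 12 and 1 fall in 4 of 12. Of 19 nutrient transporter genes, 6 rose, 31.6% of the list, and 1 fell, with a median of 0.20 (-0.24 without normalization) and 1 to 7 rises in fits without 1 array.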
